A study of Mus musculus with 15 samples.

Results

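The cytosolic heat shock chaperones were examined as a set of 10 genes, taken by gene symbol from the deposited table of 16154 genes, and all 10 were listed there. They comprise 6 inducible genes (Hspa1a, Hspa1b, Hspb1, Hsph1, Dnajb1 and Hsp90aa1), 3 constitutive genes (Hspa8, Hsp90ab1 and Dnaja1) and the regulator Hsf1. RNA was sequenced from hematopoietic stem cells (HSC), sorted from bone marrow as Lin-Sca-1+cKit+CD150+CD48- cells, with 1 library per mouse. All mice were C57BL/6 and labelled female. There were 5 young mice (6 to 12 weeks), 5 aged mice (20 to 24 months) and 5 aged mice of the same age range given nicotinamide riboside (NR), a precursor of NAD, at 3 mg/ml in the drinking water for 2 months. The libraries were 3′ biased and held 764119 to 13318989 counts, and the aged group had both the shallowest library (replicate 2) and the deepest (replicate 3). Depth went with the group. The aged libraries other than replicate 2 held 5511642 counts or more, and no young or NR-treated library held over 3631395. The median was 6007460 in aged, 2685764 in young and 3162434 in NR-treated HSC.

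Cytosolic chaperones bind unfolded or aggregation-prone proteins and help them to fold, to be held in solution or to be degraded. HSP70 proteins act in cycles of ATP hydrolysis that J proteins start and nucleotide exchange factors complete, and HSP90 takes over clients such as kinases and nuclear receptors. Under proteotoxic stress the transcription factor HSF1 is released from chaperones, forms trimers and binds heat shock elements, which are inverted repeats of the unit GAA, in the promoters of the inducible genes. The constitutive genes supply chaperones in unstressed cells, and how far stem cells can keep their proteins folded is of interest in ageing.

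Promoter sequences of RefSeq (build GRCm38.p6, 250 bases before to 50 bases after the start) were available for 6 of the 10 genes, Dnaja1, Dnajb1, Hspa1a, Hspa1b, Hspb1 and Hsph1, with 10 promoters in all. They were searched on both strands for a pair of inverted units, GAANNTTC or TTCNNGAA, and 6 promoters of 5 genes held at least 1. The pair is short, and 15.1% of all 32851 promoters of the table held one. The longer form with a further unit, GAANNTTCNNGAA or TTCNNGAANNTTC, which overlaps the pairs, was found in 0.603% of all promoters and, among these genes, in Hsph1. In Hsph1 it lies after the start and outside the window shown. The 5 genes are shown with the 30 bases around the pair farthest before the start, with the pair in capitals, because they show how alike Hspa1a and Hspa1b are and where the inducible Hspb1 and Hsph1 and the constitutive Dnaja1 carry the same motif.
Hspa1a: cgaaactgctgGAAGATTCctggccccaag
Hspa1b: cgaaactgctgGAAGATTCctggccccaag
Hspb1: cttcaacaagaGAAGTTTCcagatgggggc
Hsph1: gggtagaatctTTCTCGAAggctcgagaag
Dnaja1: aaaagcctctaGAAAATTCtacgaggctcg
The windows lie at chr17:34972242-34972271 (minus strand) for Hspa1a, chr17:34959324-34959353 (minus strand) for Hspa1b, chr5:135887791-135887820 (plus strand) for Hspb1, chr5:149636351-149636380 (minus strand) for Hsph1 and chr4:40722333-40722362 (plus strand) for Dnaja1. The pair starts 104 bases before the start of Hspa1a and of Hspa1b, and the promoters of these paralogs were identical at 296 of 300 bases. The presence of the letters is a description and does not show binding. Neither of the 2 Dnajb1 promoters held the pair, nor did the Dnaja1 promoters other than that shown.

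Hspa1a and Hspa1b, which encode the stress-inducible HSP70, were higher in aged than in young HSC by 2.48 and 3.09 on the log2 scale, and Hspb1, which encodes the small heat shock protein HSP25, by 1.94. The constitutive HSP70 gene Hspa8 was also higher, by 0.43. These 4 of the 10 genes passed an adjusted p under 0.05 (edgeR quasi-likelihood test, Benjamini-Hochberg over all genes), against 19.3% of all genes tested in either direction and 9.68% higher. With NR, Hspa1a was lower than in aged HSC by 3.22, the only 1 of the 10 genes that passed, against 8.07% of all genes in either direction and 4.18% lower. Between NR-treated aged and young HSC 0 of the 10 passed (background 4.47%), with 1 gene, Hspa8, at an unadjusted p under 0.05, a level that 18.0% of all genes reached, and with DESeq2 Hspa8 passed. Both comparisons with aged HSC share the 5 aged libraries. In bulk RNA, fewer cells that express a gene and less RNA per cell cannot be told apart.

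Hspa1a (chr17:34969190-34972156, minus strand) was counted 1, 9, 1, 2 and 3 times in the young libraries of replicates 1 to 5, 17, 2, 103, 63 and 30 times in the aged and 5, 1, 0, 1 and 4 times in the NR-treated. As CPM, that is counts scaled to the same library size with TMM factors, this is 0.351, 3.62, 0.449, 0.726 and 0.809 in young HSC. It is 2.46, 2.59, 8.71, 11.2 and 6.03 CPM in aged HSC. Young replicate 2 lay above aged replicates 1 and 2, so the groups overlap, while the other young libraries lay below all aged ones. The NR-treated libraries had 1.41, 0.298, 0, 0.365 and 1.09 CPM, all below the lowest aged library. For replicate 3 the count of 0 allows up to 1.17 CPM (3 counts, counting error only). The means were 1.19 ± 1.37 CPM in young, 6.20 ± 3.82 in aged and 0.633 ± 0.592 in NR-treated aged HSC (SD, n = 5 each).

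The fitted rise of Hspa1a with age was 2.48 ± 0.60 (log2, SE; edgeR adjusted p = 0.00752), and the fitted fall with NR was -3.22 ± 0.64 (adjusted p = 0.00755). Since many libraries held 3 counts or fewer (4 of 5 young, 1 of 5 aged and 3 of 5 NR-treated), the pooled counts are given too. There were 215 counts in aged against 16 in young HSC, a ratio of 6.26 per effective library size with a 95% exact interval from 3.77 to 11.1, and 11 in NR-treated HSC, so that aged HSC had 10.3 times the level (5.64 to 20.9). These intervals cover counting error only and not the spread between mice. Pooling weights libraries by depth, and aged replicate 3 gave 103 of the 215 aged counts. NR-treated and young HSC differed by -0.75 ± 0.78 (adjusted p = 0.677), an interval from -2.38 to 0.88 that spans both directions. Without young replicates 1 and 5, which held Y-linked transcripts, the rise was 2.02 and did not pass (adjusted p = 0.069). With counts thinned to the smallest library the fall with NR did not pass (edgeR adjusted p = 0.0827).

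Hspa1b (chr17:34956436-34959238, minus strand), which lies 9951 bases from Hspa1a, was counted 1, 6, 0, 6 and 0 times in young, 23, 5, 134, 52 and 51 times in aged and 23, 15, 4, 1 and 4 times in NR-treated HSC. The aged libraries had 3.32 to 11.3 CPM, all above the young range of 0 to 2.41 CPM. The counts of 0 in young replicates 3 and 5 allow up to 1.35 and 0.809 CPM. With NR the libraries ran from 0.365 to 6.50 CPM. NR-treated replicates 1 and 2, at 6.50 and 4.47 CPM, lay within the aged range and the other 3 below it.

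The rise of Hspa1b with age was 3.09 ± 0.71 (log2, SE; edgeR adjusted p = 0.00535), the largest of the 10 genes, with a pooled ratio of 9.49 (exact interval 5.46 to 18.1). Aged replicate 3 gave 134 of the 265 pooled aged counts. The difference between NR-treated and aged HSC was -1.52 ± 0.60 and did not pass (adjusted p = 0.118). The NR effects on Hspa1a and Hspa1b were not tested against each other. Summed to 1 row, both paralogs were higher with age by 2.79 (adjusted p = 0.00265) and lower with NR by 2.05 on the log2 scale, a fitted value of -2.05 with an adjusted p of 0.0248. NR-treated against young HSC gave 0.73 (adjusted p = 0.610).

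The paralogs share much of their sequence. Of the 2896 windows of 72 bases in the Hspa1a transcript, 1545 also occur in Hspa1b, but 0 of those in the last 500 bases, where 3′-biased libraries have most of their reads. How reads with several matches were handled is not given in the sources used here, so the split between Hspa1a and Hspa1b is less certain than their sum.

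Hspb1 (chr5:135887919-135889563, plus strand) encodes a small heat shock protein that holds unfolded proteins without using ATP. Its counts were 1, 1, 2, 2 and 4 in young, 15, 2, 33, 10 and 23 in aged and 5, 5, 3, 0 and 7 in NR-treated HSC. The aged libraries, at 1.78 to 4.62 CPM, all lay above the young ones, at 0.351 to 1.08 CPM, and overlapped those with NR, at 0 to 1.91 CPM. Aged replicate 2 and 4 of the 5 young libraries held 3 counts or fewer, so the order of these libraries is uncertain. Its rise with age was 1.94 ± 0.56 (log2, SE; edgeR adjusted p = 0.0201), and the pooled ratio was 3.87 (exact interval 2.00 to 8.36). The difference with NR was -1.16 ± 0.50 (adjusted p = 0.152). The rise did not pass without aged replicate 5 (adjusted p = 0.0654), without young replicates 1 and 5 (0.0739) or with counts thinned to the smallest library (0.158). Of the windows in its last 500 bases, 52.2% occur in other annotated genes, which were not in the table.

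Hspb1 and Hspa1b were the 2 of the 10 genes whose aged and young libraries did not overlap, both higher, as did 6.86% of all genes. Hspa1a was the 1 gene with non-overlapping NR-treated and aged libraries, lower with NR, as did 4.95% of all genes.

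**Figure D1:**
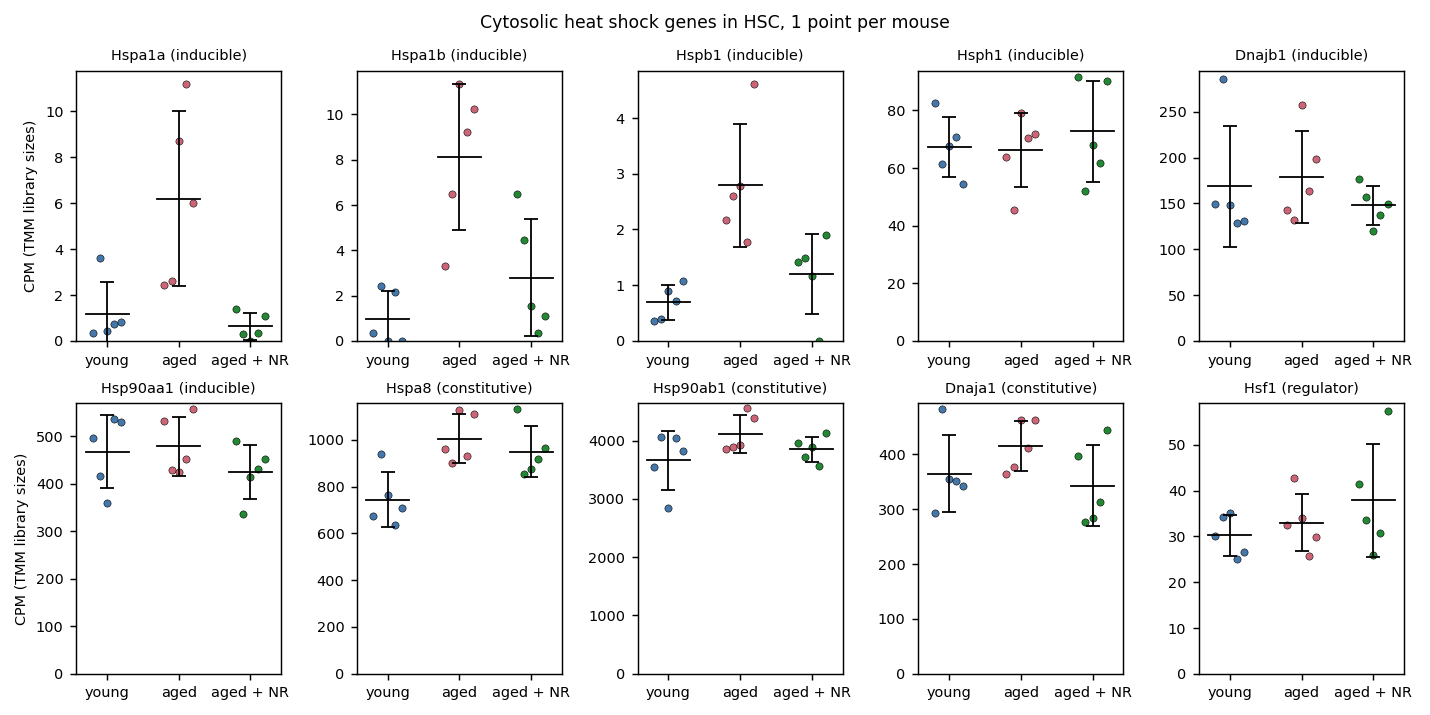
CPM (linear axis from 0, scaled per gene) of the 10 heat shock genes in each mouse (points, replicates 1 to 5 from left to right) by group, with the mean (bar) and SD (error bars), n = 5. Hspa1a, Hspa1b and Hspb1 lie below 12 CPM and have their highest mean in aged HSC. Their aged range overlaps that of young HSC (Hspa1a) or of NR-treated HSC (Hspa1b and Hspb1). The ranges of Hsph1, Dnajb1 and Hsp90aa1 overlap in all groups.

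The other inducible genes are expressed at higher counts and none of them passed a test in any comparison. Hsph1 encodes HSP110, a nucleotide exchange factor for HSP70, and had 82.5, 61.5, 67.8, 70.7 and 54.5 CPM in young, 64.0, 45.4, 79.2, 70.4 and 71.9 CPM in aged and 91.5, 52.2, 68.1, 61.7 and 90.4 CPM in NR-treated HSC. No group stood apart. The difference between aged and young HSC was 0.0069 on the log2 scale, with a 95% interval from -0.34 to 0.35.

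Dnajb1 encodes the J protein HSP40, which delivers substrates to HSP70 and starts its cycle. It had 149.8, 285.7, 148.2, 128.8 and 130.5 CPM in young, 143.2, 132.3, 257.3, 163.6 and 198.4 CPM in aged and 176.6, 156.8, 120.2, 137.0 and 149.8 CPM in NR-treated HSC. Young replicate 2 was the highest of all 15 libraries, and aged replicate 3 came next. The log2 difference between aged and young HSC was 0.10 (95% interval -0.32 to 0.53). It was 0.38 without young replicate 2 and -0.072 without aged replicate 3, and did not pass in either case. With NR it was -0.29 (-0.71 to 0.14).

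Hsp90aa1, the stress-responsive of the cytosolic HSP90 genes, had 358.8 to 537.3 CPM in young, 423.9 to 558.1 CPM in aged and 335.4 to 491.0 CPM in NR-treated HSC. All groups overlapped. The log2 differences were 0.035 with age (95% interval -0.23 to 0.30) and -0.17 with NR (-0.44 to 0.095). For Hsph1, Dnajb1 and Hsp90aa1 the intervals of the age difference exclude the fitted rises of Hspa1a, Hspa1b and Hspb1.

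Of the constitutive genes, Hspa8 (chr9:40800984-40810087, plus strand) encodes HSC70, which folds new proteins, uncoats clathrin and serves chaperone-mediated autophagy. It had 676.2, 938.4, 763.0, 637.8 and 707.7 CPM in young, 959.8, 899.1, 1128, 930.3 and 1108 CPM in aged and 1130, 854.7, 875.8, 919.0 and 966.9 CPM in NR-treated HSC. Young replicate 2 lay within the aged range, and the other 4 young libraries lay below it. Aged HSC were higher than young by 0.43 ± 0.12 (log2, SE; 1.35-fold; edgeR adjusted p = 0.0142). NR-treated and aged HSC differed by -0.083 (95% interval -0.33 to 0.16). NR-treated against young HSC gave 0.35 ± 0.12 with an adjusted p of 0.0984, and this was 0.0183 without young replicate 2.

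Of the windows in the last 500 bases of Hspa8, 84.6% also occur in other annotated genes, most of them processed pseudogenes. The lincRNA gene Gm26825 (chr5:5781530-5783636), which was looked up after its values were seen and shares 1485 windows with Hspa8, was counted at 350.4 ± 42.7 CPM in young, 389.4 ± 60.9 in aged and 388.8 ± 63.1 in NR-treated HSC (SD, n = 5). With Gm26825 added to Hspa8 the rise with age was 0.35 (adjusted p = 0.0385).

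Hsp90ab1, the constitutive cytosolic HSP90 gene, had 2843 to 4063 CPM in young, 3857 to 4551 CPM in aged and 3570 to 4120 CPM in NR-treated HSC. The groups overlapped, and the log2 difference with age was 0.17 (95% interval -0.052 to 0.39) and with NR -0.097 (-0.32 to 0.12). Dnaja1, a J protein that works with HSC70, had 293.4 to 482.2 CPM in young, 365.0 to 462.7 CPM in aged and 276.6 to 444.1 CPM in NR-treated HSC. Its log2 differences were 0.19 (-0.11 to 0.49) with age and -0.28 (-0.58 to 0.025) with NR, and neither passed. The end of its longest principal transcript overlaps Smu1 on the other strand, and whether strand was used in counting is not given in the sources used here.

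Hsf1 itself, the regulator, had 25.0 to 35.0 CPM in young, 25.8 to 42.8 CPM in aged and 26.1 to 57.5 CPM in NR-treated HSC. The highest value was NR-treated replicate 5. The log2 differences were 0.096 (95% interval -0.30 to 0.50) with age and 0.24 (-0.15 to 0.64) with NR. HSF1 is regulated largely after translation, and its activity was not measured.

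**Figure D2:**
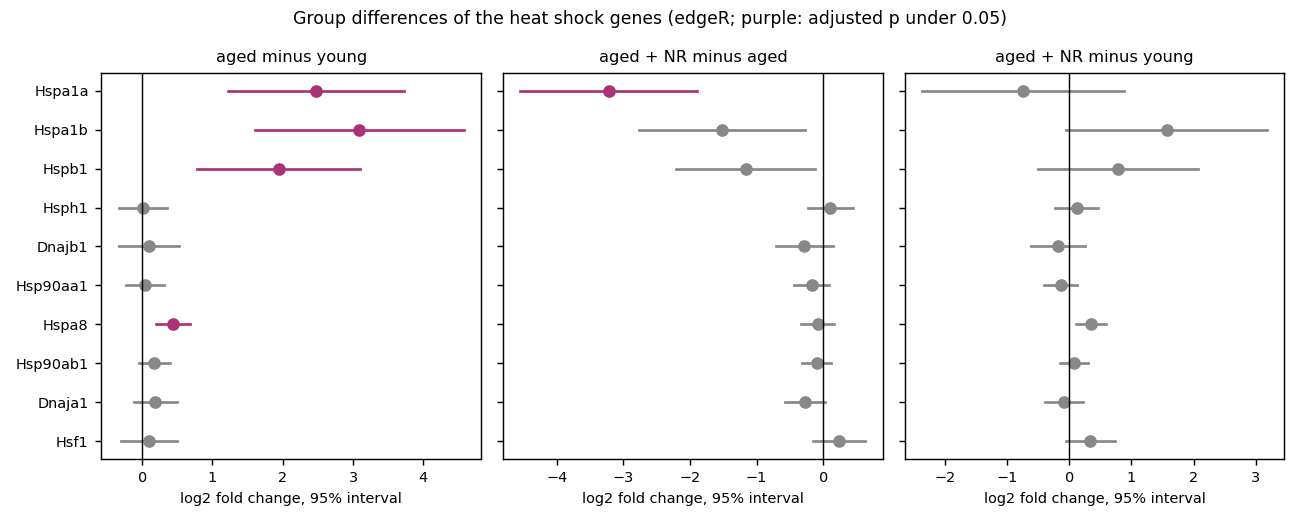
Log2 fold change (points) and 95% interval (lines) of each gene in the 3 comparisons, from 1 edgeR fit of all 15 libraries, with genes of an adjusted p under 0.05 in purple. Hspa1a, Hspa1b, Hspb1 and Hspa8 are purple for age, Hspa1a for NR, and no gene for NR-treated against young HSC.

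The inducible and constitutive genes were set side by side within each library. For HSP70, the summed counts of Hspa1a and Hspa1b per 1000 counts of Hspa8 were 1.04, 6.42, 0.589, 4.55 and 1.14 in young, 6.02, 10.1, 17.8, 22.0 and 14.7 in aged and 7.0, 5.58, 1.78, 0.795 and 2.25 in NR-treated HSC. Aged replicate 1 lay below young replicate 2 and NR-treated replicate 1, and the other 4 aged libraries lay above all libraries of both other groups. On the log2 scale (pseudocount 0.5) the ratio was higher in aged than in young HSC by 2.59 and lower with NR by 2.19, that is a difference of -2.19, each with p = 0.0159 by a two-sided exact permutation test and 0.0476 after adjustment over 6 comparisons. NR-treated and young HSC differed by 0.40 (exact permutation, adjusted p = 0.619). The smallest p that 5 against 5 libraries allow is 0.00794. With 1 library fewer the adjusted p reached 0.0952, and the age difference passed only without young replicate 2 or aged replicate 1, the NR difference only without aged replicate 1 or NR-treated replicate 1. Without young replicates 1 and 5 the age difference was 2.10 and did not pass (exact permutation, adjusted p = 0.214). So few young libraries raise the smallest p. Beside the other comparisons, this one could not have passed after adjustment, whatever its values. With Hspa1a alone over Hspa8 the age difference was 1.97 (exact permutation, adjusted p = 0.0714) and NR-treated against young HSC changed sign (-1.09).

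The same ratio for HSP90, Hsp90aa1 per 1000 counts of Hsp90ab1, was 102.7 to 140.2 in young, 99.2 to 137.7 in aged and 90.4 to 123.9 in NR-treated HSC. The differences of the log2 ratio were -0.14 with age, -0.079 with NR and -0.21 between NR-treated and young HSC, and none passed (exact permutation, adjusted p = 0.452, 0.60 and 0.190). The difference between the HSP70 and HSP90 ratios was not tested.

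**Figure D3:**
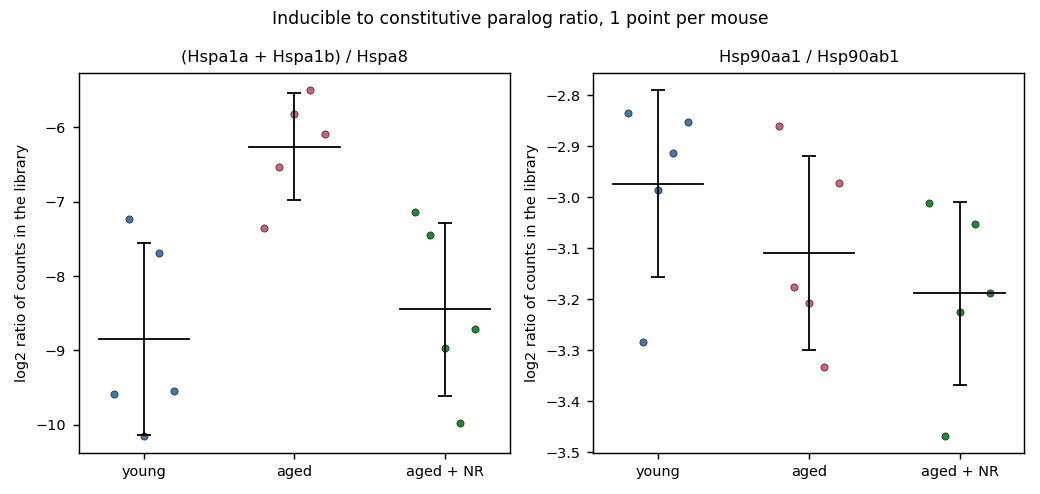
Log2 ratio of inducible to constitutive counts in each mouse (points), with mean and SD (n = 5), for HSP70 (left) and HSP90 (right). The aged mice average -6.26 for HSP70 against -8.84 in young and -8.44 in NR-treated mice, and for HSP90 the means lie between -3.19 and -2.97.

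As a mean over genes of log2 CPM (prior count 2), the 6 inducible genes were at 3.85 ± 0.35 in young, 4.93 ± 0.36 in aged and 4.0 ± 0.46 in NR-treated HSC (SD, n = 5). The 3 constitutive genes were at 9.95 ± 0.18, 10.22 ± 0.12 and 10.06 ± 0.17. The differences of the inducible mean, 1.08 with age and -0.93 with NR, came from the low-count genes. Without Hspa1a, Hspa1b and Hspb1 they were 0.039 and -0.097, and with a prior count of 10 the age difference was 0.60. The median over all 10 genes was 0.18 with age, beside -0.032 over all 16154 genes, and -0.23 with NR, beside 0.020.

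The wider cytosolic chaperone network was read from 8 lists, of which 58 genes were in the table. With age 11 of them were higher and 3 lower, which is 24.1% against the background of 19.3%. With NR 0 were higher and 4 lower, or 6.90% against 8.07%. Between NR-treated and young HSC 0 of 58 passed, against 4.47%. An unadjusted p under 0.05 was reached by 4 of the 58, against 18.0% of all genes. By the edgeR likelihood ratio test 1 passed, against 6.64% of all genes, and by DESeq2 2 passed, against 6.20%. The count with age was between 6 and 9 when young replicate 3, 4 or 5 or aged replicate 3 or 5 was left out. It was 7 without young replicates 1 and 5 together. The share of all genes fell as well, to 12.1% to 17.7% in the former fits and 11.5% in the latter. With NR the count was 1 without aged replicate 3, aged replicate 5, NR-treated replicate 2 or NR-treated replicate 4, and 2 without NR-treated replicate 3. The share of all genes in these fits was 2.61% to 5.62%.

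Among the folding machines, 3 of 8 genes of the CCT chaperonin, the ring that folds actin and tubulin, were higher with age. Over all genes 9.68% were higher with age and 4.18% lower with NR. Cct4 had 218.8 to 325.9 CPM in young and 321.4 to 394.2 CPM in aged HSC (log2 0.41 ± 0.11 SE, edgeR adjusted p = 0.0122), with Cct5 (0.36) and Cct8 (0.35) alike in size. Of 6 subunits of prefoldin, which hands clients to CCT, Pfdn5 (0.50 ± 0.11, adjusted p = 0.00375) and Pfdn1 (0.36) were higher. Pfdn5 ran from 467.5 to 669.9 CPM in young, from 678.1 to 926.8 CPM in aged and from 569.0 to 662.2 CPM in NR-treated HSC. Its aged libraries lay above all others. Cct8 and Pfdn5 were lower with NR, by -0.41 and -0.38.

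Of 18 HSP90 and HSP70 co-chaperones 1 passed, or 5.56%, against 19.3% of all genes with age and 8.07% with NR. This was Sugt1, which links HSP90 to the kinetochore and to immune receptors. It had 98.8 to 123.0 CPM in young, 146.7 to 192.0 CPM in aged and 92.8 to 134.2 CPM in NR-treated HSC. The aged libraries did not overlap either group, and the log2 differences were 0.57 ± 0.12 with age (edgeR adjusted p = 0.00248) and -0.43 ± 0.12 with NR (adjusted p = 0.0307). Of 8 other J proteins, Dnajb2 (0.49) and Dnajb6 (0.45) were higher with age and Dnajb5 was lower (-1.41, at 2.46 CPM or less in all libraries). That is 37.5% of the list with age, against 19.3% of all genes, and 12.5% with NR, against 8.07%. Dnajb6, a suppressor of aggregation, was also lower with NR (-0.60 ± 0.13, adjusted p = 0.0103). It ran from 72.2 to 101.3 CPM in aged and from 51.0 to 57.5 CPM in NR-treated HSC, with no overlap.

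Of 7 nucleotide exchange factors Bag5 was higher (0.60) and Bag4 lower (-0.72) with age, or 28.6%. Over all genes 19.3% passed with age in either direction and 9.68% as higher. Bag3, an exchange factor that HSF1 induces, did not pass. Of 3 small heat shock genes in the table Hspb6 was higher with age (1.34 ± 0.35, edgeR adjusted p = 0.0124), from 1.35 to 5.93 CPM in young to 6.76 to 13.0 CPM in aged HSC, with no overlap. Hspa4, an HSP110 relative, was lower with age (-0.33, adjusted p = 0.0492), and Hsbp1, whose product binds HSF1 trimers, was higher (0.38, adjusted p = 0.0499), both close to the threshold. None of these genes of the exchange factor, small heat shock, HSP110 and HSF lists passed with NR.

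**Figure D4:**
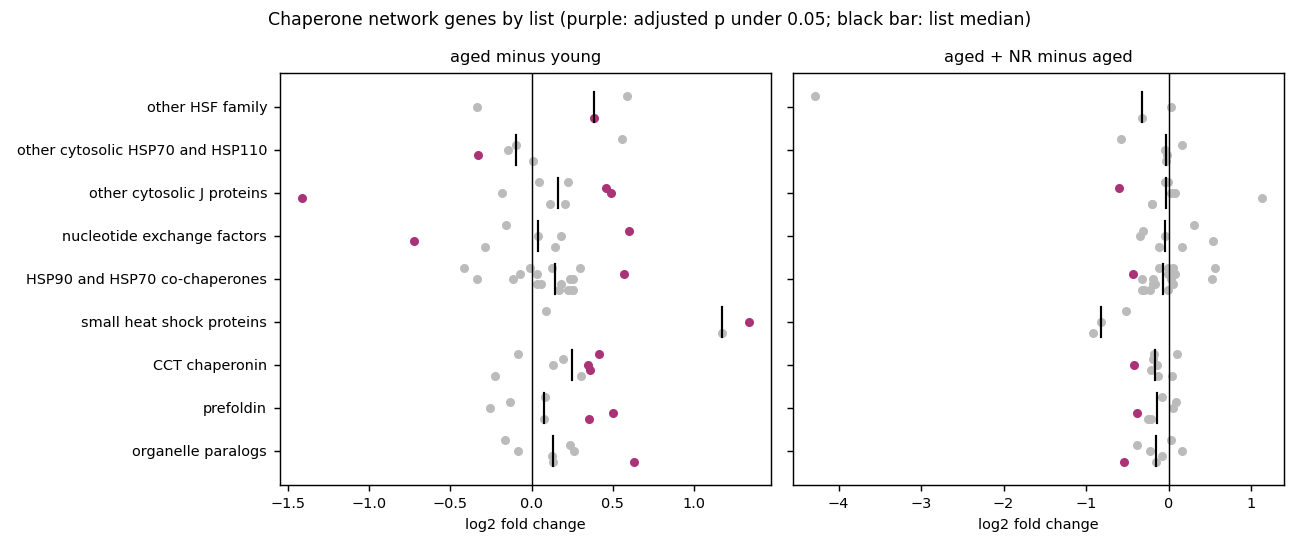
Log2 fold change of each gene (points) of the 8 chaperone network lists and of the organelle paralogs, for age (left) and NR (right), with list medians as bars and genes of an adjusted p under 0.05 in purple. Most points lie within 0.6 of 0, and no list holds more than 3 purple points with age or 1 with NR. The list medians with age run from -0.10 to 1.17. The point far to the left for NR, Hsf5, did not pass.

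The organelle paralogs belong to other stress responses and were read for contrast. Of 7, 1 passed with age and with NR, or 14.3%, against 19.3% and 8.07% of all genes. This was Hsp90b1, the HSP90 of the endoplasmic reticulum. It had 439.7 to 515.4 CPM in young, 608.8 to 945.9 CPM in aged and 435.8 to 579.1 CPM in NR-treated HSC. Its aged libraries lay above all others, with log2 differences of 0.63 ± 0.12 with age (edgeR adjusted p = 0.00151) and -0.54 ± 0.12 with NR (adjusted p = 0.0133).

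The genes whose centred log2 CPM over the 15 libraries were closest to that of Hspa1a, among the 9605 genes that averaged 10 CPM or more, were Jun, Klf4, Rhob, Spats2 and Plk2, with mean absolute differences of 0.52 to 0.72. Jun was closest, at 655.5, 2236, 498.5, 646.5 and 660.0 CPM in young, 1427, 1692, 2937, 1665 and 1753 CPM in aged and 761.9, 784.3, 712.1, 585.5 and 700.4 CPM in NR-treated HSC. As for Hspa1a, young replicate 2 was the high library of its group, which the choice of Jun by its likeness to Hspa1a favours. Of the other heat shock genes in this ranking Dnajb1 came first, at rank 561, and Hspa1b and Hspb1 were below 10 CPM and not ranked.

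Jun belongs to the immediate early genes, which cells induce within minutes of many stimuli, including cell handling. Of 12 such genes 2 were higher (Jun, Atf3) and 1 lower (Nr4a1) with age (25%, against 19.3% of all genes in either direction). With NR 0 were higher and 7 lower (58.3%, against 8.07% of all genes), and 6 were lower in NR-treated than in young HSC (50%, against 4.47%). Their summed level was 3891 to 8635 CPM in young, 4743 to 10800 CPM in aged and 2317 to 4829 CPM in NR-treated HSC. Young replicate 2 and aged replicate 3 had the highest sums of their groups, and they are also the libraries with the highest Dnajb1. The part of these genes in the Hspa1a differences was not tested.

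**Figure D5:**
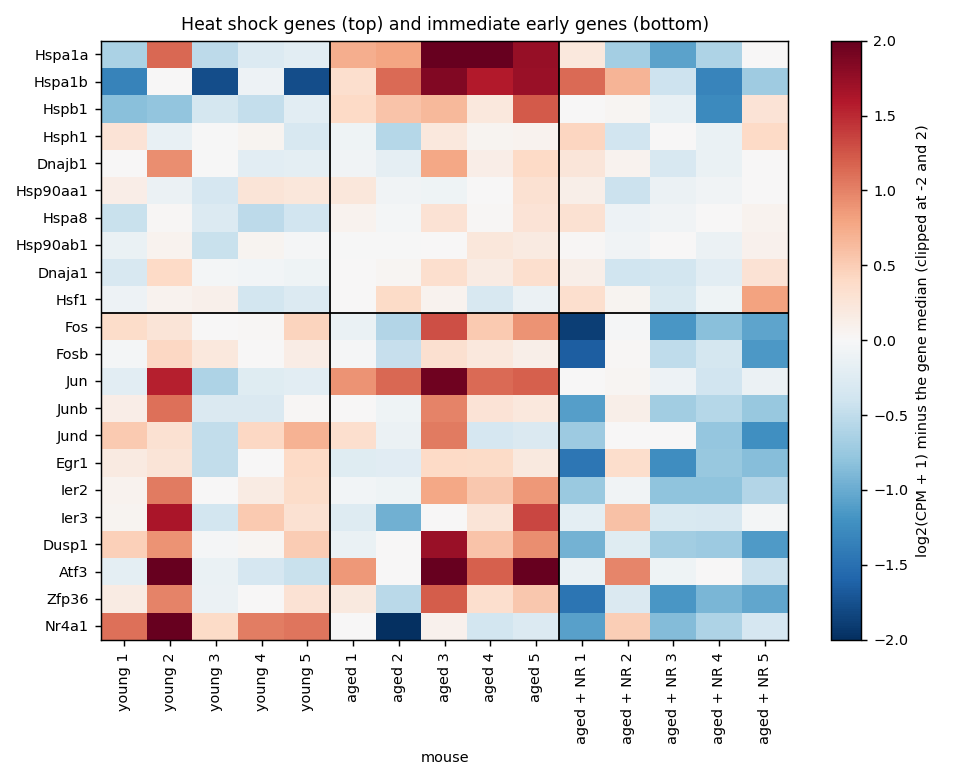
Log2(CPM + 1) minus the gene's median over the 15 mice (colour, clipped at -2 and 2) for the 10 heat shock genes (top) and 12 immediate early genes (bottom), by mouse. Hspa1a, Hspa1b and Hspb1 are red in aged mice, and young replicate 2 is red for Hspa1a, Dnajb1 and Jun.

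Markers of other cells moved with the groups. The summed level of 8 erythroid markers was 159.5 to 2666 CPM in young, 3270 to 6543 CPM in aged and 82.9 to 581.1 CPM in NR-treated HSC. That of 8 granulocyte and monocyte markers was 23.7 to 5309, 1042 to 1672 and 15.7 to 166.9 CPM, and that of 7 B cell markers 104.5 to 802.9, 601.7 to 4378 and 87.1 to 166.1 CPM. The granulocyte and monocyte sum of 5309 CPM was that of young replicate 3. In the other young libraries this sum ran from 23.7 to 629.1 CPM, below all aged ones. The 3 T and NK cell markers in the table were at 77.5 to 155.8 CPM in young and aged and at 40.8 to 149.7 CPM in NR-treated HSC. Most of this sum was Nkg7, with means of 102.5, 85.2 and 101.4 CPM in young, aged and NR-treated HSC. Cd3d and Cd3g had group means of 0.456 to 4.34 CPM. Their log2 differences with NR were -2.49 and -1.83 and did not pass (edgeR adjusted p = 0.104 and 0.278). With age 4 erythroid and 3 B cell markers were higher and 0 of the granulocyte and monocyte list, and with NR 7 erythroid, 4 B cell and all 8 granulocyte and monocyte markers were lower. The 10 HSC markers, all detected, summed to 2375 to 2866 CPM in young, 2896 to 3429 CPM in aged and 2500 to 3099 CPM in NR-treated HSC. Of these, 4 were higher with age (Procr, Ly6a, Slamf1 and Mllt3), 1 was lower with NR (Slamf1), and 2 were higher in NR-treated than in young HSC (Procr and Ly6a). Over all genes, 9.68% passed as higher with age and 4.18% as lower with NR. Between NR-treated and young HSC 4.47% of all genes passed in either direction. The part of these markers in the heat shock differences was not tested. The summed level of 4 Y-linked genes was 99.7 CPM in young replicate 1 and 105.5 CPM in young replicate 5 and 3.00 CPM or less elsewhere, so these libraries go against their female label. Without both, 1 of the 10 genes passed with age, against 11.5% of all genes. This was Hspa1b (2.37, edgeR adjusted p = 0.0478), while Hspa1a, Hspb1 and Hspa8 had log2 differences of 2.02, 2.01 and 0.37 (adjusted p = 0.0690, 0.0739 and 0.105).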

How the data were processed

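Per the labels and the study's methods, the authors mapped reads to the mouse build GRCm38 (STAR 2.4.2a), discarded those with a repeated 10 bp UMI, assigned the others to GENCODE exons with featureCounts, dropped genes with low values and deposited raw counts per gene. Total counts ran from 764119 to 13318989 per library.

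From these counts, 1 model with the group as the only factor was fitted to all 15 libraries with edgeR 4.0.16 in R 4.3.3 (TMM library sizes, quasi-likelihood test, Benjamini-Hochberg over 16154 genes, adjusted p under 0.05). Ratios within libraries were tested by two-sided exact permutation with SciPy 1.17.1. Pooled ratios have exact binomial 95% intervals, and 3 counts or fewer were taken as not told from 0. Both scripts were tested on simulated data. Sequence windows and gene coordinates came from GENCODE M21 (GRCm38). Libraries of a group differed by more than sampling noise (chi-square per degree of freedom 3.00 to 16.7). Labels name 1 mouse per library.

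Alternatives were the likelihood ratio test, DESeq2 1.42.0, limma 3.58.1 (voom), other scalings, stricter filters, thinned counts, a replicate block, 2-group fits, summed paralogs and libraries left out. The means without 3 genes, the prior count of 10 and the sum of Hspa8 with Gm26825 were added after seeing the data.

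The genes named are the 10 members, per list and comparison up to 3 genes that passed with the largest change, up to 5 immediate early genes by level, and the 5 closest to Hspa1a. Atf3, Nr4a1, Bag3, Hsf5, Smu1, Gm26825, Nkg7, Cd3d, Cd3g and the HSC markers were named after their values were seen. Members, lists and tests were chosen with earlier results of these data known.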

Additional observations from a re-analysis of the deposited data

Results flagged for a closer look

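Libraries far from the other 4 of their group were searched for among the named genes with Dixon's test, which by chance flags about 1 in 20 groups; 99 groups were tested and 15 values stood apart. Among the heat shock genes these were both in young replicate 2, with Hspa1a at 3.62 CPM (the others at 0.351 to 0.809) and Dnajb1 at 285.7 CPM (128.8 to 149.8). The same library was highest for Jun (2236 CPM), Junb (1332 CPM), Zfp36 (798.1 CPM), Atf3 (22.5 CPM) and Hsbp1 (430.4 CPM). Aged replicate 3 was highest for Jun (2937 CPM), Junb (1235 CPM) and Atf3 (286.1 CPM, the others at 2.59 to 16.7). NR-treated replicate 2 was highest for Egr1 (1160 CPM) and Atf3 (5.96 CPM). Among the network genes, Bag4 was highest in NR-treated replicate 1 (25.4 CPM), Cct8 was highest in aged replicate 5 (403.3 CPM) and Dnajb2 was lowest in aged replicate 2 (22.1 CPM), the shallowest library.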

How the results depend on the processing

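Of the 10 heat shock genes, 4 passed with age; 1 did so where each library had to hold 10 counts of a gene (Hspa1a, Hspa1b and Hspb1 are then not tested) and 1 without young replicates 1 and 5, and 3 to 4 with single libraries left out. Hspb1 was also lost with thinned counts. With NR 1 passed, 0 under that filter and 0 with thinned counts, and 1 with any library left out. For NR-treated against young HSC, Hspa8 made 1 with DESeq2, 1 with library totals and 0 to 1 with libraries left out. The network count with age, 14, was 3 with thinned counts, 9 with the replicate block, 7 without young replicates 1 and 5, and 6 to 14 with libraries left out. With NR, 4 became 1 with thinned counts and 1 to 6 with libraries left out. Against young, 0 became 1 by the likelihood ratio test, 2 by DESeq2 and 0 to 1 with libraries left out. Same-numbered libraries did not deviate together (mean correlation 0.00666, from -0.252 to 0.137), and the replicate block left the counts of heat shock genes at 4, 1 and 0.

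The HSP70 ratio no longer passed with age at 1.97 (Hspa1a alone). It was 2.10 without young replicates 1 and 5, where too few libraries remain for it to pass after adjustment. For NR-treated against young HSC it was -1.09 and -0.087. With single libraries left out the HSP70 ratio was 2.26 to 2.99, -2.52 to -1.81 and 0.070 to 0.80, where 4 against 5 libraries raise the smallest p. The ratio of HSP90 was -0.21 to -0.080, -0.13 to -0.0095 and -0.29 to -0.15. The inducible mean moved to 0.60 (prior count 10), 0.039 and -0.097 (without the low-count genes).

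The signs of small differences turned, none past the threshold, and the cause was not tested. With age, Hsph1 was -0.0077 (DESeq2), -0.13 (library totals), -0.011 (DESeq2 size factors), -0.057 (count filter), -0.29 (thinned) and -0.021 (replicate block), Dnajb1 -0.030 (library totals) and -0.053 (without young replicates 1 and 5), Hsp90aa1 -0.087 (library totals) and -0.031 (count filter), and Hsf1 -0.032 (library totals) and -0.10 (thinned). With NR, Hspa8 was 0.052 (library totals) and 0.018 (thinned) and Hsp90ab1 0.035 (library totals). Against young, thinned counts gave Hspa1a 0.28, Hspb1 -0.0020 and Hsph1 -0.040. With libraries left out, the age difference ranged from -0.066 to 0.091 for Hsph1, -0.072 to 0.38 for Dnajb1 and -0.043 to 0.090 for Hsp90aa1, and that of NR-treated against young HSC from -1.22 to 0.17 for Hspa1a, -0.27 to 0.090 for Dnajb1, -0.0085 to 0.11 for Hsp90ab1 and -0.20 to 0.032 for Dnaja1. Library totals in place of TMM moved the median of all genes to -0.16 with age and 0.16 with NR, with 29.1% and 78.4% of calls higher against 50.1% and 48.1%.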
